A study of Drosophila melanogaster with 2 samples.

Results

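Intergenic ChIP-seq peaks of the homeodomain protein B-H2 that lay close to genes, but outside their promoters, were examined in Drosophila melanogaster embryos. A pooled list of 30000 candidate peaks had been made from both replicates, and 3430 of them (11.4%) met the position rule. Their summit, the base of highest enrichment, lay in no protein-coding gene and more than 1 kb, but at most 10 kb, from the nearest protein-coding transcription start site (TSS) of the Ensembl annotation. Of these 3430 intergenic peaks, 259 were also rows of the set thresholded on irreproducible discovery rate (IDR), a filter on how well replicates rank peaks alike, and the other 3171 were not. The IDR set held 4277 peaks in all, and these were exactly the 4277 rows of highest signal in the pooled list. Belonging to it is therefore a statement about signal strength, so the signal values below are descriptions.

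The series has 1 group of 2 ChIP-seq samples, numbered 1 and 3, from whole embryos of mixed sex at 6 to 22 h of age. That age is from the source label, and a separate age entry could not be read as hours. The embryos came from a transgenic line, B-H2-GFP, that stably expresses B-H2 with a C-terminal GFP, and chromatin was sonicated to 200 to 800 bp. Antibody and assay labels give B-H2 and transcription factor ChIP-seq, whereas a descriptive note on each sample speaks of an input control, and the labels do not resolve this. No untreated or GFP-free peak list was analysed here, and the text files deposited with the lists say that both replicates were scored against the same control alignment. Whole embryos mix many tissues, so a peak cannot be assigned to a cell type, and fewer cells with a bound region cannot be told apart from weaker binding per cell.

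Intergenic DNA near genes holds enhancers, which are clusters of transcription factor sites that raise transcription of a nearby promoter, and insulators, which limit contact between neighbouring domains. It also holds the starts of non-coding RNA genes and the regions just past gene ends. B-H2 is 1 of the paired Bar homeodomain proteins, B-H1 and B-H2, known in flies for roles in sensory organ, eye and leg patterning and in neurons. Homeodomain proteins commonly bind short A/T-rich sites built around TAAT.

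The sequences at 6 of the strongest IDR-set peaks show what stretches of DNA these were. Each is the summit base with 50 bp on each side, read 5′ to 3′ on the plus strand of RefSeq's Release 6 genome, the same assembly as dm6. The peak is named by the protein-coding gene with the nearest TSS. Capitals mark any match, on either strand, to TAATTG or to the related TAATTA and the related TAATTT (homeodomain core sites), to TATCGA (the core of the DREF/BEAF-32 site), GAGAGA (bound by Trithorax-like), GGTCAC (Motif 1 core) or CGCTAG, described further below.
CG4004, chrX:12751354-12751454: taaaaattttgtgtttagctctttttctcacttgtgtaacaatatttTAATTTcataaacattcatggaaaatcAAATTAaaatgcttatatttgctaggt
eEF1gamma, chr3R:29214398-29214498: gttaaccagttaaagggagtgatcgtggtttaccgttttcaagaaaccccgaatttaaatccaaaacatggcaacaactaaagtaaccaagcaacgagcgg
hll, chr2L:14024035-14024135: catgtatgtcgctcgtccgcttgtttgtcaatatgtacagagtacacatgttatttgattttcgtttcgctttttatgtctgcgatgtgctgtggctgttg
DNAlig3, chr3R:12403086-12403186: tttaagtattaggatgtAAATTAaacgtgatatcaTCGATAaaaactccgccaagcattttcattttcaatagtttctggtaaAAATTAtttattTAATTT
CG34342, chr3L:5512108-5512208: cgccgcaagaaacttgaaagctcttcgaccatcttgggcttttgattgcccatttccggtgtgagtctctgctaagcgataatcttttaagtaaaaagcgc
chinmo, chr2L:1643407-1643507: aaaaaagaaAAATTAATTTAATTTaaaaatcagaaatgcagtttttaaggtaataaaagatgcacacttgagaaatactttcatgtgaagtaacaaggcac
Homeodomain core sites and a TATCGA were present in the DNAlig3 peak, TAATTT was present in the CG4004 and chinmo peaks, and the other 3 windows held no marked site. The chinmo window, 7801 bp upstream of the start of a gene for a BTB zinc finger protein that sets neuronal identity over time, was 24.8% G+C.

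Intergenic peaks near genes entered the IDR set less often than the pooled list as a whole. The share was 7.55% (259 of 3430, exact 95% interval 6.69 to 8.49), against a background of 14.3% for all pooled peaks. It was 6.02% (71 of 1179, interval 4.73 to 7.54) for intergenic peaks over 10 kb from a start and 6.52% (849 of 13023, interval 6.10 to 6.96) for peaks inside genes but over 1 kb from a start. These intervals overlap that of the peaks near genes, but overlap of separate intervals does not show that the shares are equal. Peaks within 1 kb of a start reached 25.05% (3098 of 12368, interval 24.3 to 25.8), well apart from it. All such intervals cover counting error over peaks only, and neighbouring peaks are not independent. In the list of each replicate alone, 259 of 3517 intergenic peaks near genes in replicate 1 (7.36%) and 263 of 3289 in replicate 3 (7.996%) were among that list's 4277 strongest rows.

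The signal of the 259 IDR-set members, on the peak caller's scale, had a median of 158 and ran between 112 and 1324. The other 3171 members had a median of 36.6, with a highest value of 111.6. Just inside the boundary were the peaks nearest CG13454, Eglp2 and CHES-1-like, at 112.0, 112.3 and 112.5. Just outside it were those nearest mgl, CG42831 and CG15429, at 111.6, 111.5 and 111.5. The boundary thus separated neighbouring values by under 1 unit. Peaks above a signal of 300 made up 11.97% of the IDR-set members (31), against 8.45% of the IDR-set peaks over 10 kb from a start (6), 10.01% of those inside genes (85) and 17.6% of those within 1 kb of a start (544).

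Distance to the start was graded weakly with IDR membership. The summit was a median of 2966 bp from the nearest TSS in IDR-set members, against 3352 bp in the others. The nearest start was within 2 kb for 33.2% of IDR-set members (86) and 26.4% of the others (836), a difference of 6.84 percentage points (Newcombe 95% interval 1.17 to 13.0). In replicate 1 alone the same difference was 4.98 points (interval -0.55 to 11.04), so this difference is not firm. By 1-kb bins the IDR share was 9.33% between 1 and 2 kb and 5.04% between 9 and 10 kb, with its lowest value, 3.86%, between 7 and 8 kb. At the position limits themselves there was no step of one kind. The share was 11.7% (15 of 128) at 1000 to 1100 bp and 9.16% (12 of 131) at 900 to 1000 bp, and it was 4.55% (3 of 66) at 9500 to 10000 bp, against 9 of 75 at 10000 to 10500 bp.

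**Figure D1:**
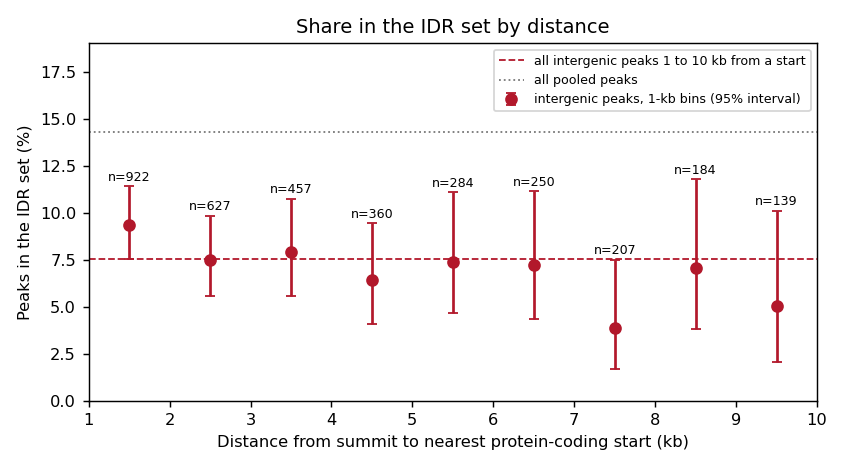
Percent of intergenic peaks in the IDR set (y axis) by distance from summit to nearest protein-coding start in kb (x axis), with exact 95% intervals and the number of peaks per bin. The bins lie between 3.86% and 9.33%, all below the dotted line at 14.3% for all pooled peaks.

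The 25 strongest intergenic members lay beside genes of varied function, and 13 of them were within 1 kb of an annotated non-coding start. The strongest, at signal 1324 on chrX:12750856-12751638, was 5087 bp downstream of the CG4004 start and inside the long non-coding RNA gene lncRNA:Vinr. Its rank was 13 in the replicate 1 list and 25 in the replicate 3 list. The second, at 997 on chr2R:12985032-12985379, lay 4205 bp upstream of Psc, which encodes a Polycomb group protein, and ranked 41 and 42. Both were among the strongest peaks of each replicate.

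The peak 5724 bp upstream of eEF1gamma, a subunit of a translation elongation factor, had a signal of 991 and was 114 bp from the start of lncRNA:CR31044. The peak upstream of hll, at 976, was 14 bp from the start of lncRNA:CR31840 and inside that gene. A peak at 554 on chr3R:7474599-7474952 lay inside snRNA:7SKa, the 7SK RNA gene, whose RNA holds the elongation factor P-TEFb inactive in animals, and 1002 bp upstream of the CG1142 start. Its rank was 624 in replicate 1 and 81 in replicate 3. Elsewhere on 3R, the peak at 354 inside lncRNA:Hsromega, a heat-inducible nuclear RNA gene, was 3651 bp upstream of SIFaR, the receptor of the SIFamide neuropeptide. These peaks shared a non-coding gene at or next to the summit.

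Gene ends were the other common setting among the 25. The peak at 801 lay in a gap of 1340 bp between the convergent genes CycB, a mitotic cyclin, and blw, a subunit of mitochondrial ATP synthase. The peak at 779, named for DNAlig3, lay in a convergent gap of 437 bp between Sol1 and Cyp9f2, 204 bp from a gene end. The peak at 741, named for Aldh-III, was 81 bp from a gene end. Of the 25, 13 had a non-coding start within 1 kb, 10 had the 3′ end of a protein-coding gene within 1 kb, and 5 had neither. The 13 upstream and 12 downstream summits were nearly balanced, and 8 of the 25 lay on arm 2R. Members outside these settings included the chinmo peak (565), the Rh5 peak (411) beside a gene for a blue-sensitive opsin, and the stck peak (357) beside the gene for the adhesion protein PINCH.

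Both replicates recovered nearly every IDR-set member, as they did the IDR set as a whole. A peak of each replicate list overlapped 256 of 259 IDR-set members (98.8%) by at least 1 bp, against 1705 of the 3171 others (53.8%) and 67.1% of all pooled peaks. The share for all IDR-set peaks was 98.8% too. The difference of 45.1 points had a 95% interval of 42.3 to 47.0, but the IDR filter uses the replicate lists, so it is a description. The 3 exceptions were the peak 1445 bp upstream of Rh5, absent from the replicate 1 list, and the peaks nearest CG42649 and Eglp2, absent from the replicate 3 list. Summits moved little: the median gap from the pooled summit was 11 bp in replicate 1 and 13 bp in replicate 3.

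Rank order was less stable than recovery. Of the 259, 207 were within the strongest 4277 rows of replicate 1, 220 within those of replicate 3, and 176 (68.0%) within both, against 71.3% of all IDR-set peaks and 73.9% of those within 1 kb of a start. All of the 25 strongest members ranked within the first 1000 rows of both lists, at worst 873 in replicate 1 and 841 in replicate 3. Across the 256 members found in both, log10 signals had a Pearson r of 0.69 and a Spearman rho of 0.54. These values are over peaks of the same libraries and are given as a description.

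The largest rank gap was at the peak nearest CG12617, with a signal of 18.4 and rank 21826 in replicate 1, against 163 and rank 731 in replicate 3. The peak 2975 bp upstream of GATAe, a GATA factor of the gut, ranked 16737 in replicate 1 and 2310 in replicate 3. In the other direction, the peak nearest Rab9Db ranked 1385 in replicate 1 and 9746 in replicate 3. These 3 were chosen for their gaps after the values were seen. The signal was higher in replicate 3 in most members, with a median ratio of replicate 3 to replicate 1 of 1.23 and 74 of 256 below 1, and the lists have separate signal scales. The median ratio was 1.48 for members near a gene end only, 1.28 for those near a non-coding start only, 1.08 for those near both and 1.16 for the rest.

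**Figure D2:**
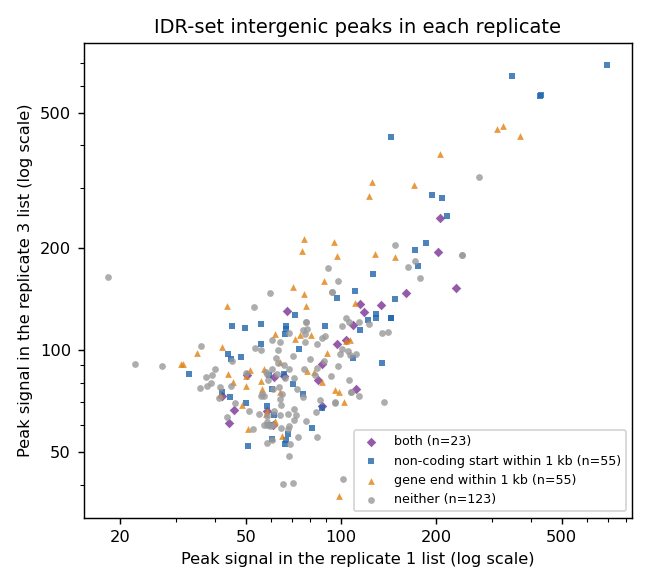
Peak signal of the 256 IDR-set intergenic peaks found in both replicate lists, replicate 1 on the x axis and replicate 3 on the y axis, both on log scales; marker shape and colour give the features within 1 kb. The strongest peaks are high in both lists, and a few peaks at the left, led by the one at 18.4 in replicate 1, are high in replicate 3 only.

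Non-coding genes lay beside IDR-set members more often than beside the other members. Here a non-coding gene is any annotated gene that is neither protein-coding nor a transposable element, so pseudogenes are included. The start of one lay within 1 kb of the summit in 79 IDR-set members (30.5%), against 458 others (14.4%) and 7.44% of all pooled peaks. It did so for 9.84% of all IDR-set peaks and 11.5% of intergenic peaks over 10 kb from a protein-coding start. The difference between IDR-set and other members was 16.1 points (95% interval 10.6 to 22.0), and it was 13.97 points in replicate 1 alone and 14.6 points in replicate 3 alone. The summit lay inside such a gene in 49 IDR-set members (18.9%), against 336 others (10.6%), a difference of 8.32 points (interval 3.88 to 13.6). That share was 4.60% for all pooled peaks, 4.51% for all IDR-set peaks and 14.3% for intergenic peaks over 10 kb from a protein-coding start.

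The nearest of these starts belonged to a gene named as a long non-coding RNA in 50 of the 79 IDR-set members, against 343 of the 458 others. Antisense RNA genes accounted for 8 and 24, transfer RNA genes for 4 and 42, microRNA genes for 4 and 12, small nucleolar RNA genes for 3 and 9, and small nuclear RNA genes for 3 and 3. Genes whose names gave none of these kinds accounted for 7 and 24 (IDR share 22.6%), and a small Cajal body RNA gene for 0 and 1. The IDR share was 12.7% at long non-coding RNA starts, 25% at antisense, microRNA and small nucleolar RNA starts and 50% at small nuclear RNA starts. At transfer RNA starts it was 8.70%, near the 7.55% for all members. The microRNA cases included the peak 215 bp from mir-34, at a signal of 274, which lies in the gap that ends at Fmr1, the fly gene for the fragile X protein. They also included the peak 719 bp from mir-282, at 246. A small nuclear RNA case was the peak 94 bp from snRNA:U6:96Ac, at 245, and a transfer RNA case was the peak 409 bp from tRNA:Ala-TGC-2-1, at 328. Most kinds other than long non-coding RNA rest on few peaks.

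The ends of protein-coding genes were also more frequent beside IDR-set members. A 3′ end lay within 1 kb of the summit in 79 IDR-set members (30.5%) and in 629 others (19.8%), a difference of 10.7 points (95% interval 5.19 to 16.7), measured after the first tables had been seen. Across all pooled peaks the share was 17.4%, and across the whole IDR set 25.5%. Members next to neither feature entered the IDR set at 5.41% (125 of 2309, interval 4.53 to 6.42). The share was 9.42% (55 of 584, interval 7.17 to 12.1) next to a gene end only and 13.3% (55 of 413, interval 10.2 to 17.0) next to a non-coding start only. It was 19.4% (24 of 124, interval 12.8 to 27.4) next to both, a count that is small. The order was the same in both replicate lists, where the shares among the strongest rows were 18.5% and 21.4% for both, 11.97% and 13.2% for non-coding starts, 10.1% and 11.2% for gene ends and 5.31% and 5.68% for neither.

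**Figure D3:**
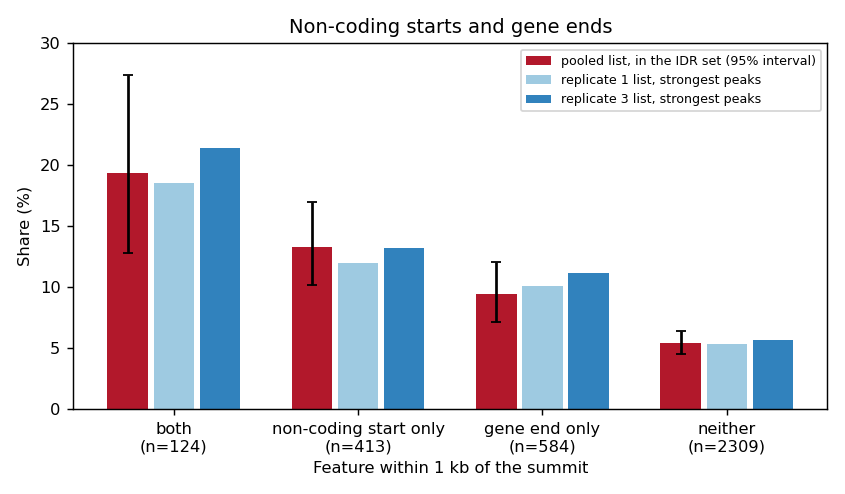
Percent of intergenic peaks in the IDR set (red bars, exact 95% intervals) or among the strongest 4277 rows of the replicate 1 and replicate 3 lists (light and dark blue), by the features within 1 kb of the summit (x axis). The pooled bars stand at 19.4%, 13.3%, 9.42% and 5.41%.

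Gene layout moved with these shares. The flanking protein-coding genes pointed towards each other around 29.0% of IDR-set members (75) and 22.0% of the others (697), a difference of 6.98 points (interval 1.59 to 12.9). Tandem gaps held 39.8% and 47.1%, and divergent gaps, with a start at each side, held 31.3% and 30.9%. The gap was under 5 kb for 32.4% of IDR-set members and 21.4% of the others, a difference of 10.99 points (interval 5.39 to 17.1). In convergent gaps the IDR share was 12.7% (41 of 322) with a gene end within 1 kb and 7.56% (34 of 450) without one, and in tandem gaps 9.87% (38 of 385) and 5.37% (65 of 1210). The side of the nearest start made no firm difference: the summit was upstream of it in 57.9% of IDR-set members and 62.8% of the others, a difference of -4.87 points whose interval, -11.2 to 1.22, includes 0.

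IDR-set members were less often alone. No other pooled summit lay within 1 kb of 29.0% of them (75), against 44.9% of the others (1425), a difference of -16.0 points (interval -21.4 to -9.93). The share was 36.6% for all pooled peaks, 35.0% for all IDR-set peaks and 51.1% for intergenic peaks over 10 kb from a start. IDR-set members were also lower in G+C, with a mean of 39.1% ± 10.2 against 42.1% ± 9.22 within 50 bp of the summit (SD over peaks, n = 259 and 3171), where all IDR-set peaks averaged 39.6%. Arm 2R carried 23.9% of IDR-set members and 15.8% of the others, a difference of 8.17 points (interval 3.20 to 13.9). Of the 562 members on 2R, 62 (11.03%) were in the IDR set, and the other arms ran between 6.10% (3L) and 7.85% (3R), beside 7.55% for all members and 14.3% for all pooled peaks. Over all pooled peaks the share was 15.7% on 2R and 13.6% on 3L. The arm was picked out after the values of all 6 were seen. Transposable elements held 1 IDR-set member and 27 others.

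**Figure D4:**
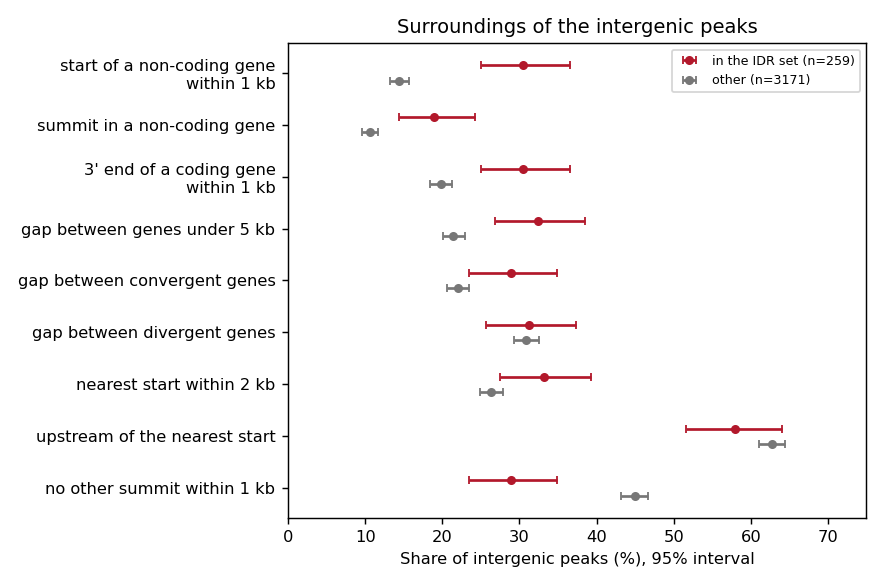
Share of intergenic peaks (x axis, percent, exact 95% intervals) with each surrounding (y axis), for the 259 in the IDR set (red, upper point) and the other 3171 (grey, lower point). The intervals are separate for non-coding starts (30.5% and 14.4%), gene ends and lone summits, and they overlap for divergent gaps and the upstream side.

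The 13 known sites that were searched did not set the IDR-set members apart. Each site was looked for on either strand, up to 50 bp from the summit, and the 95% interval of the difference included 0 for all 13 in the pooled list. TAATTG, a homeodomain core, was in 6.95% of IDR-set members (18) and 8.23% of the others (261), with 8.70% across all pooled peaks. In replicate 1 alone the difference for TAATTG was -3.96 points with an interval of -6.36 to -0.37, which leaves out 0, and in replicate 3 alone it was -1.22 points (interval -4.05 to 2.75). TAATTA was in 6.95% and 6.24%, TAATTT in 15.4% and 16.8%, and TAAACG in 5.79% and 4.60%. With G+C bins reweighted the TAATTT difference was -5.91 points, outside the interval of its main value, -5.48 to 3.70. TATCGA was in 5.02% of IDR-set members and 3.41% of the others, whereas 15.7% of the IDR-set peaks within 1 kb of a start held it and 6.23% of all pooled peaks did. GAGAGA was in 4.25% and 3.85%, and GGTCAC in 2.70% and 1.96%. The largest differences were for CACACA, in 8.49% and 11.7% (-3.21 points, interval -6.26 to 0.97), and CAGCTG, in 1.93% and 4.13% (-2.20 points, interval -3.53 to 0.39). Sites of this length also occur by base composition alone, so no match says anything firm about a factor.

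Further windows that held such a site are shown here, with the same capitals. The second CG4004 peak, at signal 464, holds a TATCGA, and the Hex-A and foxo peaks hold TAATTG.
CG4004, chrX:12752324-12752424: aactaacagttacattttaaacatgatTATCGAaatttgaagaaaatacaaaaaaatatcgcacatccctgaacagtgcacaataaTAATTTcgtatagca
Hex-A, chrX:9583859-9583959: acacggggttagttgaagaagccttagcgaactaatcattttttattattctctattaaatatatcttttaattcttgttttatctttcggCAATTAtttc
foxo, chr3R:14053572-14053672: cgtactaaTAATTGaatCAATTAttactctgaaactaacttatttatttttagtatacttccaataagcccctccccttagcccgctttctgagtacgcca
The foxo window, at signal 334, lay 3323 bp upstream of foxo, a forkhead factor that acts in insulin signalling, and holds 2 TAATTG matches on opposite strands.

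A screen of all sites of 6 bases pointed to other letters. Among the 952 sites held by at least 10 IDR-set members, the highest ratio was for CGCTAG, in 5.41% of IDR-set members and 1.01% of the others. ACCTAG was in 4.63% and 1.04%, CATCTA in 9.27% and 3.00%, and GCGCCA in 13.1% and 4.10%. GTACTA (4.63% and 1.42%, ratio 3.26) and GCTAGC (3.86% and 1.23%, ratio 3.14) ranked above CATCTA (ratio 3.09). Neither of them is part of the pattern below. The minimum of 10 holders was set on IDR-set members alone. A rare site could thus enter only by being frequent in them, and the ratios lean upward. Some sites below that minimum were scarce in IDR-set members. The lowest ratios listed were for AAGGAG, in 0.39% of IDR-set members and 4.26% of the others, and ACCCAC, in 0.77% and 5.14%. With 952 sites ranked, ratios over 1.5 were reached by 189 and ratios over 2 by 51, so a single high ratio is weak. In the same direction, GCGCCA was in 10.4% of the strongest members and 4.42% of the others in replicate 1, and in 13.3% and 4.46% in replicate 3. The pooled list that picked out this site was made from these same libraries, so the replicate values are no independent check of it. Laid over each other on 1 strand, these last 3 sites spell a longer stretch whose core letters, AGNTGGCGC, lie inside the known binding motif of the insulator protein CTCF.

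That 9-base pattern, chosen after the screen had been seen, was in 18 of the 259 IDR-set members (6.95%, interval 4.17 to 10.8) and in 25 of the 3171 others (0.79%, interval 0.51 to 1.16). Across all 30000 pooled peaks 0.75% held it (224). Of the 43 intergenic members with the pattern, 18 (41.9%, interval 27.0 to 57.9) were in the IDR set, against 241 of the 3387 without it (7.12%). The share was 5.63% (4 of 71) in IDR-set peaks over 10 kb from a start, 2.00% (17 of 849) in those inside genes and 1.48% (46 of 3098, interval 1.09 to 1.98) in those within 1 kb of a start. The letters were put together from some of the sites ranked highest in these same 259 members, with other high sites left out. The members' share is therefore high in part by that choice. It is given as a description, and its difference from the other classes was not tested. In replicate 3 alone the pattern was in 6.46% of the strongest members and 0.73% of the others, and in replicate 1 alone in 4.25% and 0.80%. The difference of 6.16 points in the pooled list was thus 3.45 points without replicate 3, and its size rests partly on that library.

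**Figure D5:**
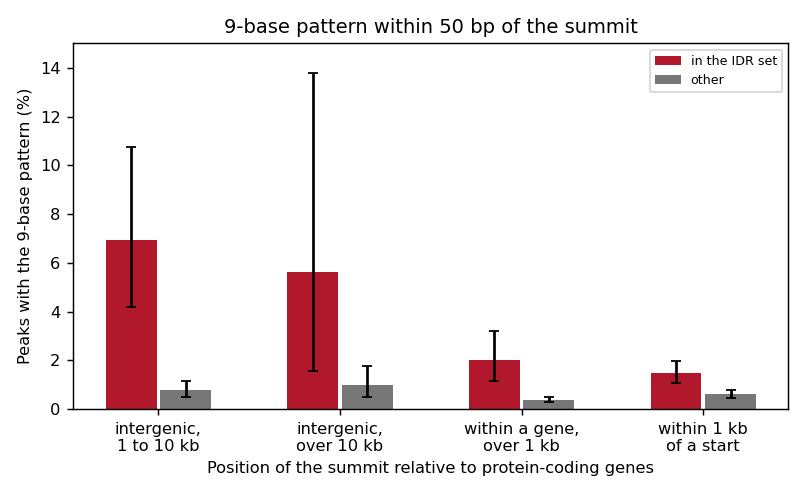
Percent of peaks with the 9-base pattern within 50 bp of the summit (y axis, exact 95% intervals) by position of the summit (x axis), for IDR-set peaks (red) and other peaks (grey). The red bar of the intergenic peaks 1 to 10 kb from a start is at 6.95% and the grey one at 0.79%, and the red bar within 1 kb of a start is at 1.48%.

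These 5 windows show the pattern in strong IDR-set holders whose window touches no protein-coding gene. Capitals mark the pattern alone, as AGNTGGCGC or as its reverse complement.
Sid, chr3R:28672342-28672442: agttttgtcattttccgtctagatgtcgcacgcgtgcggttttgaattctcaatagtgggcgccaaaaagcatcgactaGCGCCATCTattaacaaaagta
Fmr1, chr3R:10100671-10100771: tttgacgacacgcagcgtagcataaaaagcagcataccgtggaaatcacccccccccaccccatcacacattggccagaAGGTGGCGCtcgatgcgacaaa
Sox21a, chr3L:14111562-14111662: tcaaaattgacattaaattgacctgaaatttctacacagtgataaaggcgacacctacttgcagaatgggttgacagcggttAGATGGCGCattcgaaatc
sbr, chrX:10832517-10832617: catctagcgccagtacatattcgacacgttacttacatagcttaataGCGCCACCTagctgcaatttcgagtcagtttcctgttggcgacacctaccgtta
Fancm, chr3R:21487905-21488005: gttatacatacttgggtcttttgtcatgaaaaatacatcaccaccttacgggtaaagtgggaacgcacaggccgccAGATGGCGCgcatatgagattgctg
In the Sid and sbr windows the match is on the minus strand, and in the other 3 on the plus strand. The sbr match, beside the gene for the nuclear RNA export receptor, is centred 1 bp from the summit, and that of Sox21a, a Sox family factor gene, 36 bp from it. The median distance between match and summit was 23 bp over the 18 IDR-set holders and 14 bp over the 25 others, so the match was no closer to the summit in the stronger peaks.

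The 18 holders were of moderate signal, between 112.5 (CHES-1-like) and 323 (Sid), with a median of 167, and none was among the 25 strongest. All 18 had a peak in both replicate lists, but so did 98.8% of all IDR-set members, so this does not set the holders apart. A gene end lay within 1 kb of 10 of the 18, beside 30.5% of all IDR-set members. Other holders lay beside eya, which encodes an eye and muscle developmental factor, at 116 and 160 bp from a gene end, and beside slbo, which encodes the C/EBP protein of migrating border cells, at 130. Metabolic genes were represented by Ldh, lactate dehydrogenase, at 122, and Men, malic enzyme, at 133.

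Gene groups near the members were compared by counts. Among 110 members nearest developmental transcription factor genes other than homeobox genes, 11 (interval of the share 5.10% to 17.2%) were in the IDR set. The share was 9.52% (6 of 63) for signalling genes, 4.26% (2 of 47) for homeobox genes and 0% (0 of 56, interval up to 6.38) for axon guidance and adhesion genes. All are read against 7.55% for members as a whole, and apart from the last, every one of these intervals includes that value. Over all pooled peaks assigned to the same genes the shares were 13.1%, 10.5%, 6.98% and 5.59% in this order, so those of axon guidance and adhesion genes were low in the pooled list too. The median signal of these 4 groups was 49.0, 41.2, 37.1 and 36.3, beside 38.4 for all members. Ribosomal protein genes had 3 of 30 members in the IDR set, whereas 46.4% of all pooled peaks assigned to them were in it. Chemosensory receptor genes had 3 of 52 and cuticle protein genes 1 of 31, beside 2.73% and 2.27% of all pooled peaks assigned to them. Heat shock, mitochondrial ribosomal and antimicrobial peptide genes had no IDR-set member among 4, 6 and 3. Over all pooled peaks assigned to them the shares were 35.1%, 32.7% and 0% in this order.

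Named examples from these groups were mostly upstream peaks. Besides the peak shown above, chinmo had a second at 216, 1904 bp upstream. The homeobox gene zfh2 had a peak at 198, 3905 bp upstream, on the small chromosome 4. There too the peak 3108 bp upstream of ci, the Hedgehog pathway transcription factor, stood at 191. The Wnt ligand gene Wnt4 had one at 190, 4473 bp upstream, and the receptor gene fz4 one at 158. The cuticle protein gene Cpr76Ba had a peak at 287 downstream of its start, which ranked 2364 in replicate 1 and 413 in replicate 3.

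The gene for the tagged protein itself had intergenic peaks. B-H2 was the nearest gene of 5 members, all upstream, and 1 was in the IDR set, at signal 166 on chrX:17313352-17313735 and 1037 bp from the start. The other 4, between 2131 and 5335 bp away, had signals of 61.9, 37.6, 46.9 and 58.8, given from the farthest to the nearest. Farther upstream in the same gap, a member named for the neighbour CG5445 stood at 198. B-H1 was the nearest gene of no member.

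IDR-set members had neighbours about as often as IDR-set peaks in general. In bins of 50 kb, 178 held at least 1, 137 held exactly 1 and 17 held 3 or more, so most occupied bins held a single one. Another IDR-set peak of any class lay within 5 kb of 149 of the 259 (57.5%, interval 51.3 to 63.6), against 31.1% of the other members, 61.6% of all IDR-set peaks and 44.3% of all pooled peaks. The densest bin, chr2L:12000001-12050000, held 11 IDR-set members among 23 members, around Hacd1, Rh5 and Wdr81, and 8 of them were nearest Rh5. Their signals ran between 112.7 and 411. Some of these are separate summits of 1 called interval, as at chr2L:12010869-12011455 (411 and 260), so they are not independent peaks. The bin around tara, a transcriptional co-regulator gene, and mtSSB, the mitochondrial single-stranded DNA binding protein gene, held 7 of 23. In it tara had 4 peaks between 145 and 490, at 1134 to 3797 bp upstream. Upstream of foxo, 4 IDR-set members had signals of 121, 182, 222 and 334.

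Peaks found in 1 replicate only were seldom among the strongest of their list. Of the members of the replicate 1 list, 1509 of 3517 (42.9%) overlapped no peak of the replicate 3 list, and of those of the replicate 3 list 1348 of 3289 (41.0%) overlapped none of replicate 1, but 5 in each case ranked within the strongest 4277. In replicate 1 the strongest were nearest CG42649 (99.7), CG12134 (72.8) and Prx2 (64.0). The CG42649 peak was not weak: it ranked 1356 in that list and belonged to an IDR-set member of pooled signal 143. In replicate 3 they were nearest CG5953 (87.2), Dyro (68.5) and Paics (67.6).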

How the data were processed

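The series measured B-H2-GFP ChIP-seq enrichment in 2 embryo samples. The deposited lists give 1 signal value per peak, on the authors' peak caller scale, per the narrowPeak layout of the files, and a deposited −log10 q-value, which saturates at 4.09 and was not used to rank. Coordinates are in dm6, per the labels; caller, settings and IDR threshold are not given here by labels or headers. Read depth per sample is unknown. Replicate lists and the pooled list each hold 30000 rows, so percentages among them partly reflect that fixed length. The labels number the samples as biological replicates; whether embryos came from separate collections is not stated there.

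Summits were placed against protein-coding genes of Ensembl release 115 (BDGP6.54; 13986 genes) and sequences came from RefSeq's Release 6 genome. The contrast was IDR-set members against other members, by shares with exact Clopper-Pearson intervals and Newcombe intervals of the difference, and no p-value was computed, since peaks are not replicates. In each replicate list the strongest 4277 rows were set against the rest. Named peaks were the 25 strongest IDR-set members, up to 3 per gene list (10 lists), the 3 on each side of the boundary, the densest 50-kb bins, the strongest peaks of 1 replicate, and those nearest B-H1 and B-H2; other named peaks are examples chosen after their values were seen. Sequences were shown only for peaks off arm 2R. Members and lists were chosen with earlier results of these data known. Scripts were tested on simulated data and run with Python 3.11.15, pandas 2.3.3 and scipy 1.17.1. Alternatives covered the distance limits, gene models, merging, overlap, GC and distance reweighting, window size and each replicate alone.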

Additional observations from a re-analysis of the deposited data

How the results depend on the processing

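Of 174 alternative values for 16 results, 167 stayed within the 95% interval of the main value, 7 moved outside it and none was reversed outside that interval, although 6 small differences of shares changed sign. The IDR share was 5.99% when all annotated genes, in place of protein-coding genes, set both what is intergenic and the nearest start, where the share at non-coding genes has no value by construction. Recovery in both replicates differed by 47.7 points from 2 kb outwards, 48.9 points with overlapping peaks merged and 55.9 points with a larger overlap of the shorter peak required. The TAATTT difference was -5.91 points with G+C bins reweighted. Added measures that moved were the 9-base pattern, to 3.45 points without replicate 3, and lone summits, to -22.0 points with overlapping peaks merged; the causes were not tested. The difference within 2 kb of a start had an interval that included 0 with members limited to 5 kb (6.34 points), with the stronger IDR-set members only (4.64 points) and without replicate 3 (4.98 points). With either replicate alone, the non-coding start difference was 13.97 and 14.6 points and that for gene ends 12.9 and 13.2 points. The added measures were the 9-base pattern, gene ends, convergent gaps and lone summits, chosen after seeing the data. No paired analysis was possible because both samples belong to 1 group. Depth is unknown, and with 2 replicates against a shared control no error between embryo collections can be estimated.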
